A study of Arabidopsis thaliana with 4 samples.

Results

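The aquaporins of Arabidopsis thaliana are a family of membrane channel genes, and all 35 of them were followed here in seedlings of a double mutant. The members were taken by gene identifier from the published family: 5 PIP1, 8 PIP2, 10 TIP, 9 NIP and 3 SIP genes among the 37885 genes of the deposited table. The rule is the whole family and holds no measured value. Family names are written with a point (PIP2.1) where the plant nomenclature has a semicolon. Poly(A)-selected RNA from whole prt6-1hyt1-1 seedlings was sequenced in 4 libraries, labelled as biological replicates 1 to 4. The plants were 7 days old, had grown in continuous light on half-strength MS agar lacking sucrose, and were untreated at harvest. All 4 libraries carry both mutant alleles. The labels give no other group, so no genotype or treatment was compared, and the Col-0, prt6-1 and prt6-1erfvII lines that the series design names are not analysed here.

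PRT6 is a ubiquitin ligase of the plant N-degron pathway, which removes the group VII ERF transcription factors when oxygen and nitric oxide are present, and prt6-1 is a loss-of-function allele. The labels do not tie hyt1-1 to a gene. The library labelled replicate 4 spells the genotype differently (prt-16hyt1-1), which was read as a misprint, and the count columns carry the name hup40 in place of hyt1. The libraries held 24743656, 26155431, 25804589 and 24947145 gene counts. On the first principal component of the log expression values, replicate 1 lay at -26.6 and replicates 2 to 4 at 12.1, 8.52 and 6, so replicate 1 stood apart from the others. Replicates 3 and 4 were separated on the second component, at -21.9 and 15.9. Seed storage transcripts were high in replicate 2, as given with the seed-type aquaporins. Genes of shoots and roots were both present: the 6 leaf markers summed to between 39412.5 and 42293.0 depth-normalised counts (CPM) per library and were led by the chlorophyll-binding protein gene LHCB1.3. The 8 root markers summed to between 4882.9 and 5937.9 CPM and were led by PYK10, the root and hypocotyl ER-body glucosidase. In whole seedlings, a lower level of a transcript cannot be told apart from a smaller share of the tissue that makes it.

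Aquaporins are channels that assemble as tetramers, each subunit with its own pore. PIPs (plasma membrane intrinsic proteins) carry water across the cell surface, and some also pass hydrogen peroxide, carbon dioxide or ions. TIPs (tonoplast intrinsic proteins) sit in the vacuole membrane, NIPs (nodulin 26-like intrinsic proteins) pass small uncharged solutes such as boric acid, lactic acid and arsenite, and SIPs (small basic intrinsic proteins) are found in the endoplasmic reticulum. In roots, PIPs set much of the hydraulic conductivity, which falls within minutes when oxygen is lacking and the cytosol acidifies.

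The family took 0.498, 0.552, 0.546 and 0.546% of all gene counts in replicates 1 to 4, a mean of 0.536% ± 0.0251 (SD, n = 4). Replicates 2 to 4 lay close together and replicate 1 lay below them. The TIP genes held 0.192% ± 0.0117, the PIP1 genes 0.174% ± 0.00623 and the PIP2 genes 0.151% ± 0.00697 of all counts (SD, n = 4). The SIP genes held 0.0115% ± 0.000293 and the NIP genes 0.00738% ± 0.000870. A few members carried the family: TIP1.2 alone made up 16.5% ± 0.380 of the aquaporin counts, TIP1.2 with PIP1.2 31.6% ± 0.590, and the 6 most counted members, which add PIP2.1, TIP1.1, TIP2.1 and PIP2.7, 66.8% ± 0.481 (SD, n = 4 each).

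Levels per length are given as TPM, the length-normalised level within a library, computed from the count plus 0.5 and the merged exon length. edgeR's expression filter kept 29 of the 35 members and 19940 genes in all. The 6 members below it were TIP1.3, TIP3.1, TIP3.2, TIP5.1, NIP4.1 and NIP4.2. Of the 29 kept, 4 ranked in the top 1% of the genes past the filter by mean TPM, 10 in the top 5% and 14 in the top 10%, whereas 7 lay below the median gene. Mean TPM was above 100 for 13 members and under 10 for 5 of those past the filter. Where a member is said to vary beyond counting error, a chi-square test over the libraries' counts gave a Benjamini-Hochberg adjusted p under 0.05 over all genes tested.

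**Figure D1:**
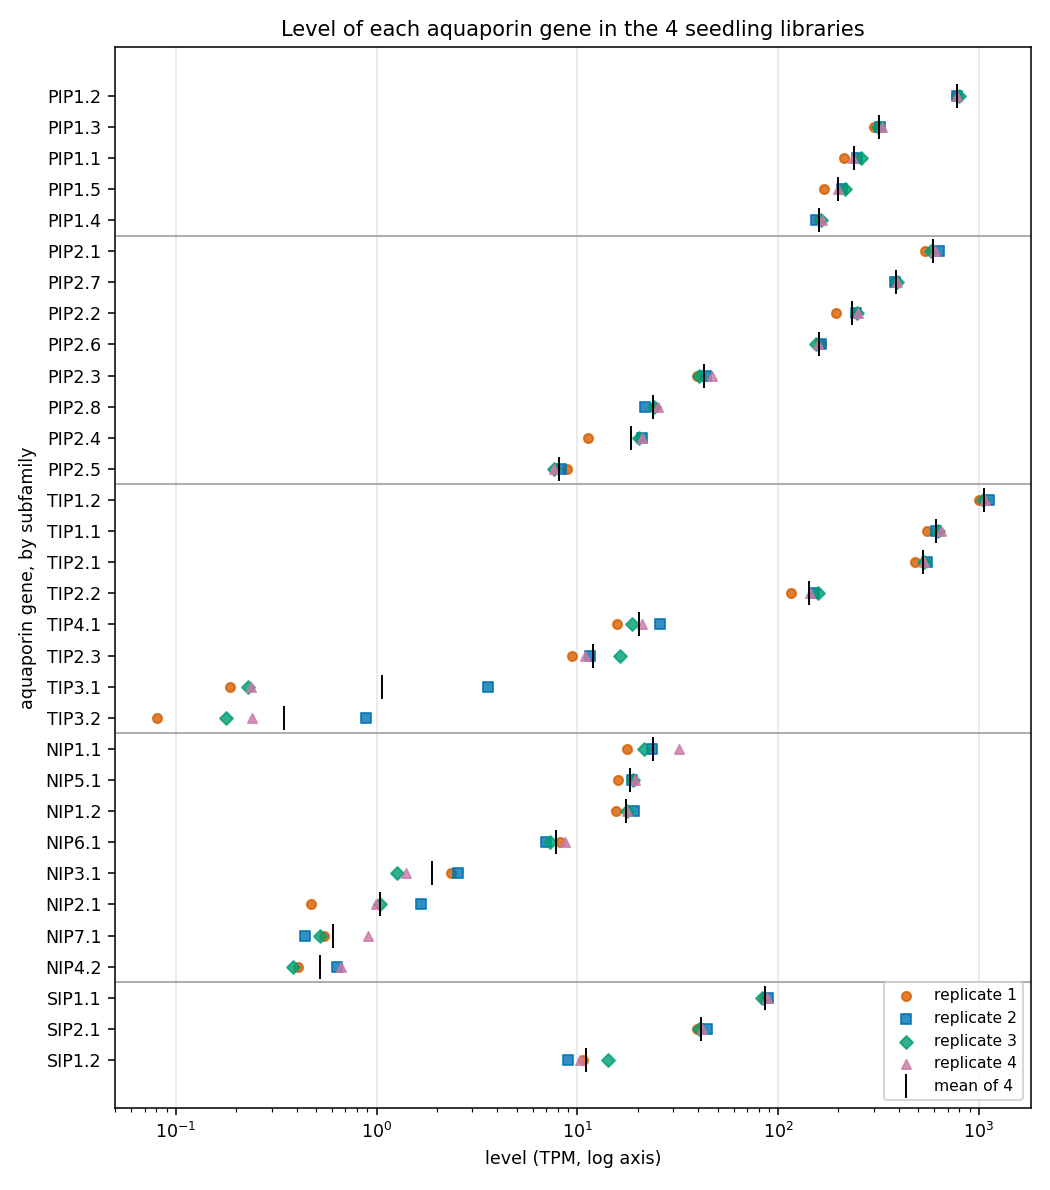
Level of the 32 aquaporin genes with more than 3 counts in all, grouped by subfamily, in TPM on a log axis. Coloured points are the 4 libraries and black bars their means. TIP1.2 leads at a mean of 1063 TPM, and the blue squares of replicate 2 stand far to the right for TIP3.1 and TIP3.2.

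Among the PIP1 genes, whose products in maize need a PIP2 partner to reach the plasma membrane, PIP1.2 (AT2G45960) led. It stood at 766, 781, 795 and 779.7 TPM in replicates 1 to 4, a mean of 780.3 ± 11.7 (SD, n = 4). PIP1.2 contributes to root water uptake and to carbon dioxide entry in leaves. Its 4 values lay within a few percent of each other. PIP1.3 (AT1G01620) had 302, 322, 314 and 331 TPM. PIP1.1 (AT3G61430) had 214, 246, 260.2 and 236 TPM. PIP1.5 (AT4G23400) had 169, 208, 214 and 200 TPM. All 3 were lowest in replicate 1, and the ranges of PIP1.1 and PIP1.5 touch. PIP1.4 (AT4G00430), which passes hydrogen peroxide from the cell wall space into the cell, had 159.7, 154, 163 and 165 TPM, with replicate 2 lowest. All 5 PIP1 genes varied beyond counting error, most clearly PIP1.1 (adjusted p = 3.61e-34) and PIP1.5 (adjusted p = 4.63e-34), and least clearly PIP1.4 (adjusted p = 0.00749), whose call was lost without replicate 2 and also without replicate 3.

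The PIP2 genes encode the main water-conducting PIPs, and their levels spanned a far wider range than those of the PIP1 genes. PIP2.1 (AT3G53420), a water and hydrogen peroxide channel of roots, leaves and guard cells, led with 539, 633, 581 and 605 TPM, a mean of 589 ± 39.9 (SD, n = 4). PIP2.7 (AT4G35100), which responds to salt, followed with 383, 385, 393 and 391 TPM, a narrow range with no library apart. PIP2.2 (AT2G37170), which takes part in root water transport, had 194, 245, 247 and 249.7 TPM. In PIP2.2 replicate 1 lay well under the 3 others, whose values were within a few TPM of each other (chi-square, adjusted p = 5.04e-46). PIP2.6 (AT2G39010) had 163, 163, 154 and 158 TPM. PIP2.3 (AT2G37180), also known as RD28 from its response to desiccation, had 39.6, 43.9, 40.4 and 47.0 TPM. PIP2.8 (AT2G16850) had 24.01, 21.7, 24.2 and 25.3 TPM, and PIP2.5 (AT3G54820), a gene known to rise in the cold, had 8.84, 8.26, 7.66 and 7.66 TPM. These lower members showed no library far from the rest, and PIP2.5 and PIP2.8 did not pass the test of counting error (adjusted p = 0.480 and 0.197).

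PIP2.4 (AT5G60660), a root-type water channel, differed from the other PIP2 genes in its spread. Its counts were 259, 515, 494 and 490 in replicates 1 to 4, or 11.3, 21.1, 20.4 and 21.1 TPM. Replicate 1 was far below the other 3 libraries, which were nearly level. Its CPM in replicate 1 was 0.530 times that of replicates 2 to 4 pooled, with a 95% interval of 0.463 to 0.606 that covers counting error only, as do the other intervals given for counts. The counts varied beyond counting error (chi-square, adjusted p = 3.44e-18). Without replicate 1, PIP2.4 no longer passed that test.

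PIP2.2 and PIP2.3 are neighbours on chromosome 2, at positions 15613368 to 15615022 on the minus strand and 15617635 to 15619155 on the plus strand of the TAIR10.1 build, with 2612 bases and 0 annotated genes between them. Their coding sequences are identical at 94.8% of aligned bases, the highest identity of any pair in the family. The longest identical run is 242 bases. They share 19.6% of the 50-base windows of PIP2.2 and 21.7% of those of PIP2.3, so reads from these stretches could be split or dropped, and both levels are uncertain to that extent. The first 120 bases of their shared coding start show how close the copies are. The 12 bases that differ are in capitals. The sequences are read 5′ to 3′ from the RefSeq TAIR10.1 genome. The annotated coding sequence of PIP2.2 starts upstream in its longest form, so its stretch begins at coding base 130, and that of PIP2.3 at coding base 1.
PIP2.2: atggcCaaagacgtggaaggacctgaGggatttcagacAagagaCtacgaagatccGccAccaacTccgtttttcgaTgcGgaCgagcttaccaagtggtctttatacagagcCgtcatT
PIP2.3: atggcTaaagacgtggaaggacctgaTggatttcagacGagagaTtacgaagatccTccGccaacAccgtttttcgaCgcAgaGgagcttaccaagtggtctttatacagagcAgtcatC

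The vacuolar TIP genes held the most counted member of the family. TIP1.2 (AT3G26520) had 997.5, 1130.0, 1053 and 1073 TPM in replicates 1 to 4, a mean of 1063 ± 54.7 (SD, n = 4). TIP1.1 (AT2G36830), the gamma-TIP that carries water, urea and hydrogen peroxide, had 551, 614, 623 and 647 TPM. TIP2.1 (AT3G16240), the delta-TIP that also passes ammonia, had 481, 551, 530.3 and 534 TPM. In each of these 3 genes replicate 1 lay below the others. The lower TIP genes ranged more widely relative to their level. TIP2.2 (AT4G17340) had 115, 152, 159 and 144 TPM, and its CPM in replicate 1 was 0.748 times that of the pooled others (0.716 to 0.782). TIP4.1 (AT2G25810), a vacuolar channel of roots, had 294, 510, 369 and 394 counts, or 15.8, 25.8, 18.8 and 20.9 TPM, with replicate 1 lowest and replicate 2 highest. TIP2.3 (AT5G47450), also expressed in roots, had 9.39, 11.5, 16.3 and 10.9 TPM, and here replicate 3 was highest. All 6 varied beyond counting error, with adjusted p (chi-square) between 1.35e-50 for TIP1.2 and 2.85e-09 for TIP2.3, whose call was lost without replicate 3. TIP1.3 (AT4G01470) and TIP5.1 (AT3G47440) are known from pollen. TIP1.3 had 1 count, in replicate 4, and TIP5.1 had 0 counts in every library. A count of 0 allows up to 3 counts, or between 0.116 and 0.120 CPM per library. Of the 8 pollen markers, 4 also had no count, and the list summed to 0.882, 0.464, 0.275 and 0.554 CPM, led by the calcium channel gene CNGC18 at 0.355 CPM.

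TIP3.1 and TIP3.2 are the seed-type TIPs, known from the membrane of protein storage vacuoles in embryos. TIP3.1 (AT1G73190) had 3, 71, 4 and 4 counts in replicates 1 to 4, and TIP3.2 (AT1G17810) had 1, 17, 3 and 4. Both genes were high in replicate 2 only among these libraries, and at or near the floor of 3 counts in the others. The CPM of TIP3.1 in replicate 2 was 18.9 times that of the pooled others (9.93 to 39.5), and that of TIP3.2 6.21 times (2.54 to 16.6). TIP3.1 varied beyond counting error (chi-square, adjusted p = 9.04e-33), and without replicate 2 it had too few counts to be tested. Its call was therefore bound to follow from the library that brought it into the test. TIP3.2 was below the 10 expected counts that the test required. The 13 seed markers, which include the storage proteins and oleosins, summed to 8.70, 152.9, 6.29 and 6.41 CPM, a ratio of 21.5 for replicate 2 (19.6 to 23.5). CRA1, a cruciferin storage protein gene and the highest of them, had 159, 1394, 86 and 102 counts. All 11 seed markers with enough counts to be tested varied beyond counting error, against 42.6% of all genes tested. Some, such as CRU3 with 1, 998, 2 and 0 counts, had enough counts through replicate 2 alone, so their call was bound to follow. The rise in replicate 2 was not shared by the whole list. EM1 had 3, 1, 0 and 0 counts in replicates 1 to 4. EM6 had 21, 29, 9 and 24, with replicate 2 only a little above replicate 4. Of the 13 seed markers, 3 passed the expression filter. The part of seed material in the TIP3 values was not tested.

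**Figure D2:**
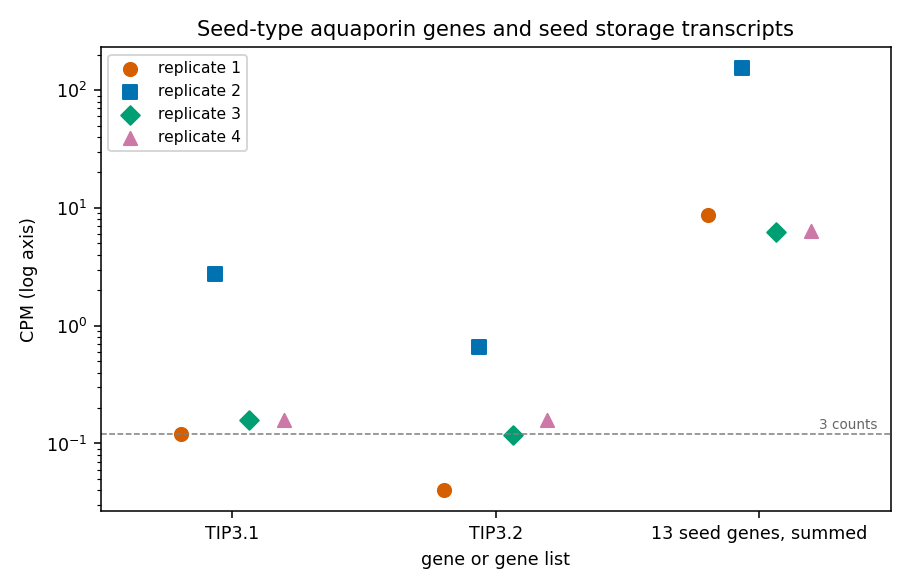
CPM, on a log axis, of TIP3.1, TIP3.2 and the sum of 13 seed marker genes in each library. Replicate 2 (blue squares) stands above the other replicates in all 3 columns, and the dashed line marks 3 counts.

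The promoters of the TIP3 genes are shown for the elements that seed genes are known for. The RY element (CATGCA) is bound by the B3 regulators of embryo maturation, and the ABRE core (ACGTG) by bZIP factors of the abscisic acid response. The 250 bases before each annotated gene start are read 5′ to 3′ from the RefSeq TAIR10.1 genome on the plus strand, at chr1:27521694-27521943 for TIP3.1 and chr1:6129775-6130024 for TIP3.2. Capitals mark matches on either strand. In TIP3.1 a pair of overlapping RY matches on opposite strands forms 1 run, and the second run is an ABRE core in reverse.
TIP3.1: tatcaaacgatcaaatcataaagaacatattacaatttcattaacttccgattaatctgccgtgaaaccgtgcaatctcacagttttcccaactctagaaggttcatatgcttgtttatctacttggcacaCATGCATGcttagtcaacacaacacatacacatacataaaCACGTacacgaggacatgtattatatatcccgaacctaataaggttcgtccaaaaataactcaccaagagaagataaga
TIP3.2: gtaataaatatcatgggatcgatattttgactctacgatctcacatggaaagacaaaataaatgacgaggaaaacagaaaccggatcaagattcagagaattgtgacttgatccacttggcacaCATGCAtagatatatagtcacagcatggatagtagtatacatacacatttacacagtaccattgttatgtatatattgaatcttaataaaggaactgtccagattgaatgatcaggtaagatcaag
Both promoters hold the same 17 bases, with the RY match in capitals, starting 129 bases before the gene start in TIP3.1 and 136 bases before it in TIP3.2.
Shared stretch: acttggcacaCATGCAt

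Across the family, an RY match lay in the same window of 10 of the 35 members (28.6%), against 8.43% of 27437 promoters of all genes. The 10 were PIP1.1, PIP1.5, PIP2.4, PIP2.7, PIP2.8, TIP1.2, TIP3.1, TIP3.2, NIP1.1 and NIP6.1, so most of them are not seed-type genes. An ABRE core was found in 4 members (11.4%), TIP1.1, TIP3.1, TIP5.1 and SIP1.1, against 22.9% of all promoters. The GCC box (GCCGCC), a target of ERF proteins, was found in TIP1.2 alone (2.86%), against 1.87% of all promoters. The hypoxia-responsive promoter element (HRPE), through which group VII ERFs act on low-oxygen genes, had no match in the windows of the 35 members, against 0.0401% of all promoters. Both strands were searched for each motif, and a match of this kind describes the letters only. None of the 35 coding sequences has a cysteine codon directly after the start codon, the feature that makes a protein a candidate for the PRT6 branch of the N-degron pathway, against 0.748% of 27390 protein-coding genes.

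The NIP genes were lower than the main PIP and TIP genes. NIP1.1 (AT4G19030), a channel known for arsenite and antimonite uptake, had 407, 574, 524 and 750 counts, or 17.7, 23.5, 21.6 and 32.1 TPM, with replicate 4 highest and replicate 1 lowest (chi-square, adjusted p = 5.23e-21). NIP1.2 (AT4G18910), which passes aluminium malate, had 15.7, 19.1, 17.8 and 17.7 TPM. NIP5.1 (AT4G10380), the root boric acid channel, had 16.02, 18.7, 18.9 and 19.4 TPM, with replicate 1 apart below (chi-square, adjusted p = 0.00471, a call lost without that library). NIP6.1 (AT1G80760), which moves boron to young shoot tissue, had 8.23, 7.02, 7.32 and 8.65 TPM and did not pass the test of counting error (adjusted p = 0.448). NIP3.1 (AT1G31885), also linked to arsenite, had 53, 61, 30 and 32 counts, with replicates 1 and 2 above replicates 3 and 4 (chi-square, adjusted p = 0.00536). Of its 50-base windows, 9.01% also occur in AT2G21020, which had 82, 92, 76 and 85 counts, so reads could be split between these genes.

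NIP2.1 (AT2G34390) is the member known for induction by low oxygen, where it releases lactic acid from root cells. It had 10, 39, 24 and 22 counts, or 0.471, 1.67, 1.04 and 0.997 TPM, near the bottom of the family. Replicate 1 was lowest and replicate 2 highest, and the counts varied beyond counting error (chi-square, adjusted p = 0.00348), a call that was lost without replicate 1 and also without replicate 2. The 13 low-oxygen core genes had median log2 deviations of -0.15, 0.12, 0.14 and -0.09 in replicates 1 to 4. They were led by the desaturase gene SAD6 at 100.4 ± 4.28 CPM (SD, n = 4). Without stated use of strand, NIP2.1 reads cannot be told from those of the antisense lncRNA AT2G08660, which covers 838 of its exon bases (59.7%) and had 10, 2, 4 and 2 counts. NIP7.1 (AT3G06100), a boric acid channel of anthers, had 13, 11, 13 and 22 counts and did not pass the test (adjusted p = 0.245). NIP4.2 (AT5G37820), known from pollen, had 7, 12, 7 and 12 counts, and its tandem neighbour NIP4.1 (AT5G37810), 1989 bases away, had 0 in every library. Per length, NIP4.2 was at least 12.7-fold higher than NIP4.1, with 38 counts over the 4 libraries set against a floor of 3.

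The SIP genes, whose products lie in the endoplasmic reticulum membrane, had 1 member, SIP1.2, that varied beyond counting error. SIP1.1 (AT3G04090) had 84.6, 89.6, 83.3 and 87.6 TPM, and SIP2.1 (AT3G56950) had 39.5, 44.2, 40.2 and 41.8 TPM. Neither passed the test of counting error (adjusted p = 0.148 and 0.0821), though SIP2.1 was called without replicate 4. SIP2.1 shares 147 exon bases in antisense with AT3G56940, which had between 32733 and 35789 counts per library, so a small share of its reads counted without strand would weigh in the SIP2.1 value. SIP1.2 (AT5G18290) had 219, 196, 306 and 214 counts, or 10.7, 8.99, 14.1 and 10.3 TPM. Replicate 3 was highest (chi-square, adjusted p = 7.27e-06), and without it SIP1.2 was no longer called.

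Ordered by mean TPM, the 32 members with more than 3 counts ran from TIP1.2, PIP1.2, TIP1.1, PIP2.1 and TIP2.1 at the top to NIP7.1 (0.605 ± 0.206), NIP4.2 (0.522 ± 0.149) and TIP3.2 (0.345 ± 0.365) at the bottom (SD, n = 4 each). Of the 31 neighbouring pairs in this order, 17 were not separated, meaning that the sign of their log2 TPM difference changed among the libraries. TIP1.1 and PIP2.1 were not separated (mean log2 ratio 0.05 ± 0.07, higher in 3 of 4 libraries), nor were PIP1.1 and PIP2.2 (0.04 ± 0.10) or PIP1.4 and PIP2.6 (0.01 ± 0.08, 2 of 4 libraries). The 5 steps from PIP2.8 through NIP1.1, TIP4.1, PIP2.4 and NIP5.1 to NIP1.2 were not separated either. The 5 steps from NIP3.1 down to TIP3.2 were not separated. The number of such pairs in the family was 14, 11, 16 and 14 without replicates 1 to 4 in turn. With fewer libraries a change of sign has less room to occur, so part of each drop is built in.

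Related members were then compared within each library as log2 ratios of TPM. In 14 of 15 pairs the same gene was higher in all 4 libraries, each with an exact two-sided sign-flip p of 0.13, the smallest that 4 libraries allow, and a Benjamini-Hochberg adjusted p of 0.134, so no pair could pass 0.05. PIP1.2 over PIP1.1 gave 1.84, 1.67, 1.61 and 1.73. TIP1.2 over TIP1.1 gave 0.86, 0.88, 0.76 and 0.73. Both were positive throughout with a small spread. PIP2.3 over PIP2.2, the near-identical neighbours, gave -2.30, -2.48, -2.61 and -2.41, and PIP2.8 over PIP2.7 averaged -4.03 ± 0.08 (SD, n = 4). SIP2.1 over SIP1.1 averaged -1.06 ± 0.03, the smallest spread of the 15. PIP2.5 over PIP2.4 gave -0.35 in replicate 1 against -1.35, -1.41 and -1.46 in replicates 2 to 4, and NIP1.2 over NIP1.1 gave -0.86 in replicate 4 against -0.17, -0.29 and -0.28 in replicates 1 to 3. In each of these pairs a single library lay apart. TIP3.2 over TIP3.1 averaged -0.90 ± 0.91 and was the only pair of the 15 whose sign changed (exact sign-flip p = 0.25). The positive value was 0.01 in replicate 4, where both genes had 4 counts, so its sign comes from exon length alone. Replicate 2, which held most counts of both genes, gave -2.02.

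**Figure D3:**
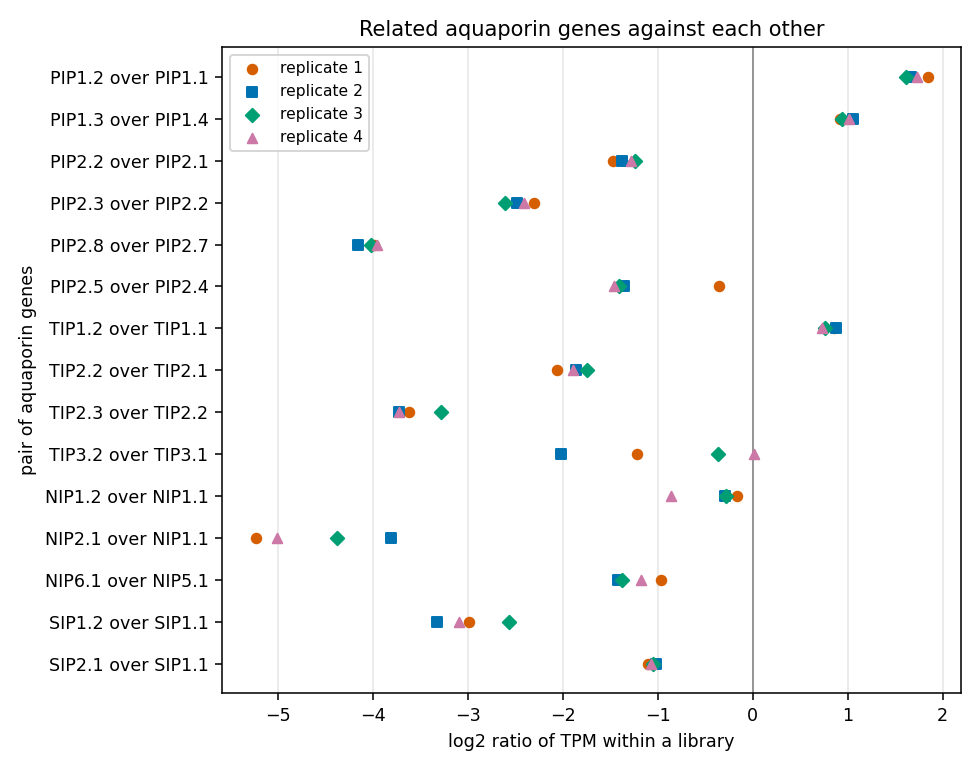
Log2 ratio of TPM within each library for 15 pairs of related aquaporin genes, where points right of 0 mean that the first gene is higher. The points are widest apart in TIP3.2 over TIP3.1, NIP2.1 over NIP1.1, PIP2.5 over PIP2.4, SIP1.2 over SIP1.1 and NIP1.2 over NIP1.1.

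Among the 30 members with at least 10 expected counts in every library, 24 (80%) varied beyond counting error. Of all 20687 genes tested, 42.6% did. This call comes more easily at high counts: of the 14 members with a mean of at least 1000 counts, 13 were called, against 65% of all genes at that depth. By subfamily, 5 of 5 PIP1, 6 of 8 PIP2, 7 of 7 tested TIP, 5 of 7 tested NIP and 1 of 3 SIP genes were called. The 24 members and the 7 TIP genes include TIP3.1, which had enough counts through replicate 2 alone, so its call was bound to follow. The biological coefficient of variation (BCV), edgeR's estimate of the relative spread between libraries beyond counting, had a median of 0.0711 over the 29 members and 0.0807 over all genes past the filter. It lay above the trend at the gene's expression level in 18 of 29 members (62.1%), against 34.1% of all genes. The widest excess was in PIP2.4, with a BCV of 0.153 where the trend stood at 0.0807, followed by NIP2.1 (0.251 against 0.187) and NIP1.1 (0.130 against 0.0713). PIP1.2 (0.0503), PIP2.7 (0.0497) and PIP2.6 (0.0501) lay below their trend.

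**Figure D4:**
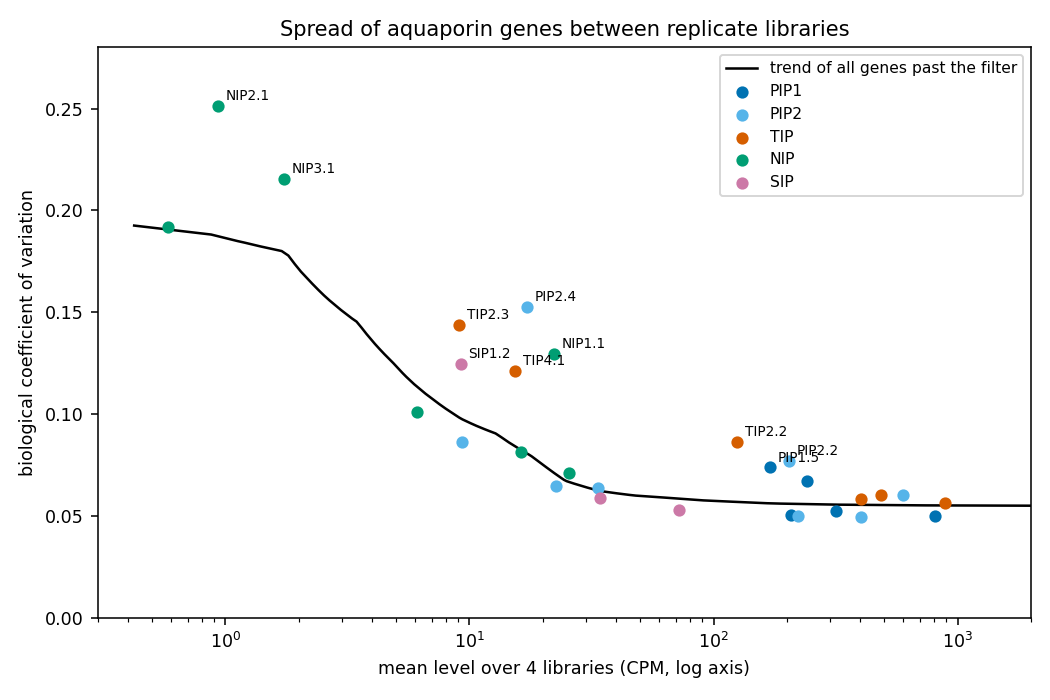
BCV of the 29 aquaporin genes past the filter against mean CPM on a log axis, with the trend over all genes as a line. Named points lie more than 0.015 above the trend, and PIP2.4, NIP2.1 and NIP1.1 are farthest above it.

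Replicate 1 held the lowest value of most members. Of the 29 members, 21 (72.4%) had their lowest CPM there, against 28.5% of all genes past the filter. Of the 24 members called beyond counting error, 20 were lowest in replicate 1, against 32.7% of all genes called, and 0 were highest there, against 29.6%. TIP3.1 is among the 20, with 3 counts in replicate 1 against 4 in replicates 3 and 4. Median log2 deviations from the gene's own mean were -0.13, 0.06, 0.05 and 0.01 over the 29 members in replicates 1 to 4, and 0.00 in each library over all genes. The median deviation in replicate 1 was -0.24 for the 6 TIP genes, -0.18 for the 7 NIP genes, -0.09 for PIP1, -0.08 for PIP2 and -0.05 for SIP. The depth of the shift differed between close relatives: PIP2.4 lay at -0.68, PIP2.2 at -0.28 and PIP1.5 at -0.24, whereas PIP2.6 lay at 0.01 and PIP2.5 at 0.11. Replicate 2 held the highest value of 11 of 29 members, against 22.6% of all genes. With library sizes scaled by DESeq2, 21 members were again lowest in replicate 1, and with unscaled totals 20 were. Members of a family in the same 4 libraries are not independent of each other.

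**Figure D5:**
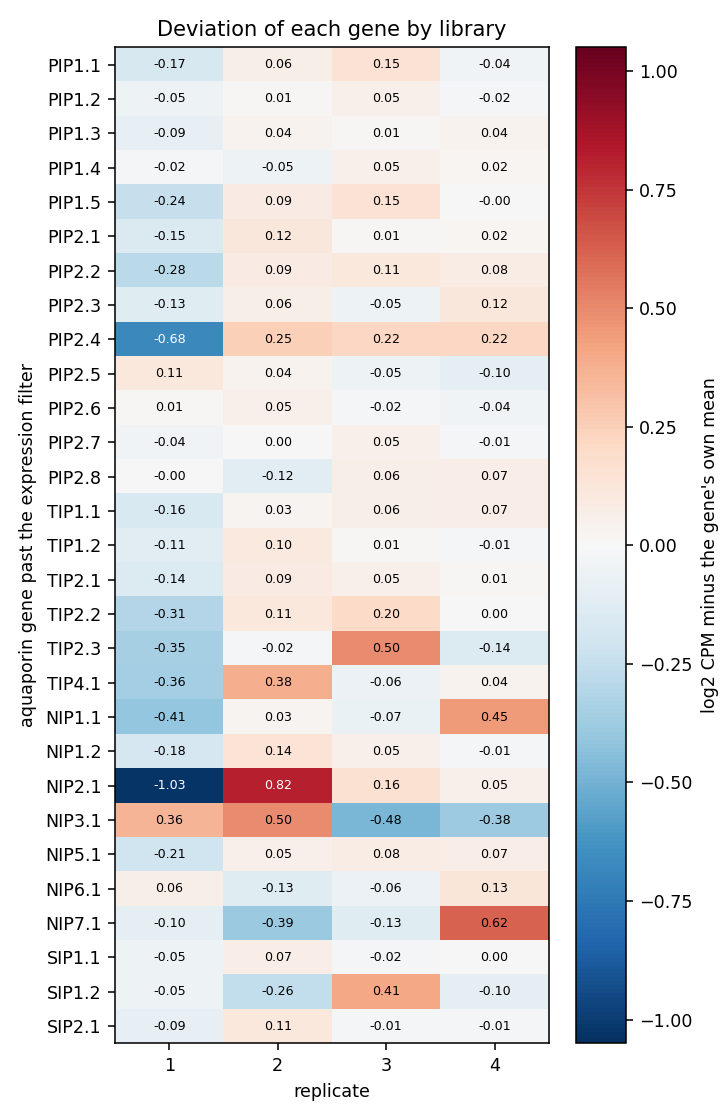
Log2 CPM of each aquaporin gene past the filter minus the gene's own mean over the 4 libraries, with blue for below and red for above the mean. The replicate 1 column is blue for most genes, deepest in NIP2.1 (-1.03) and PIP2.4 (-0.68), whereas NIP3.1 is at 0.36 there.

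Of the 8 root markers, 6 were lowest in replicate 1, as were 10 of the 13 low-oxygen genes, against the same 28.5% of all genes. The other 2 root markers were highest there: IRT1, the root iron transporter gene, at 162.5, 143, 94.8 and 146 CPM in replicates 1 to 4, and SCR, an endodermis regulator, at 37.1, 34.6, 34.7 and 33.6 CPM. These 2 are named after their values were seen. The root list had median deviations of -0.22, 0.16, -0.07 and 0.07. The leaf markers had medians of 0.04, 0.00, 0.05 and -0.07, and 1 of 6 was lowest in replicate 1. The part of root content in the aquaporin values was not tested. When replicate 1 was left out, 16 of 31 members tested were called beyond counting error, against 26.5% of all genes. All 16 were among the 24, and the 8 lost were PIP1.3, PIP2.2, PIP2.3, PIP2.4, TIP1.1, NIP1.2, NIP2.1 and NIP5.1. Beside the losses already given, the call was lost for PIP2.6 and NIP1.2 without replicate 2, for PIP2.7 without replicate 3, and for PIP2.3 and PIP2.6 without replicate 4. SIP2.1 went the other way and was called only without replicate 4. The members above the BCV trend fell to 10 of 29 without replicate 1, against 33.8% of all genes.

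Other genes of water and boron transport were followed beside the family. The list of 21 holds the proton pumps AHA1 and AHA2, kinases, ubiquitin ligases and trafficking proteins that act on PIPs, and boron exporters. Of the 21, 9 varied beyond counting error, a share close to the 42.6% of all genes tested. Their median deviations were -0.02, 0.02, 0.01 and 0.01, and 8 of 21 were lowest in replicate 1. AHA2, a plasma membrane proton pump of roots, was highest at 408.5 ± 52.1 TPM (SD, n = 4), with 23358, 29636, 21581 and 24557 counts and replicate 2 highest (adjusted p = 1.75e-260, chi-square). AHA1, the related pump of shoots and guard cells, stood at 236 ± 3.32 TPM, and VAMP721, a vesicle SNARE that helps deliver PIPs, at 68.8 ± 1.31 TPM. AHA1 had the smallest spread relative to trend of the 9 called. The lowest were HCR1, a Raf-like kinase that lowers root hydraulic conductivity under low oxygen, at 2.11 ± 0.188 TPM, TSPO, which directs PIP2.7 to degradation, at 1.36 ± 0.457 TPM, and BOR4, a boron exporter, at 0.693 ± 0.278 TPM. BOR4 had 30, 50, 21 and 23 counts and the largest excess over the BCV trend of the 9 called (chi-square, adjusted p = 0.00478).

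Exon number was the same across the PIP genes and across the SIP genes, but varied among the TIP and among the NIP genes. All 13 PIP genes had 4 exons in their longest transcript, the TIP genes 1 to 3, the NIP genes 3 to 5 and the SIP genes 3. Coding identity between PIP1 genes ran from 79.8 to 87.6%, and between PIP1 and PIP2 genes from 70 to 75.9%. Among TIP genes it ran from 56.4 to 81.7% and among NIP genes from 57.7 to 88.1%. The higher gene of the closest pair in a subfamily could lie far above its relative, as in PIP2.2 over PIP2.3 and NIP4.2 over NIP4.1. Antisense neighbours also share exon bases with TIP2.1 (120 bases with AT3G16250) and with TIP3.1 (290 bases with AT1G73200, which had 705 to 831 counts). TIP3.2 shares 91 bases with AT1G17820. It also shares 462 bases (39.4% of its exon bases) with the antisense lncRNA AT1G05333, which had 0 counts in each library. TIP5.1 shares 91 bases in antisense with AT3G47450, which had 1236 to 1324 counts, and TIP5.1 itself had 0 counts in each library. Whether antisense reads entered the counts of other members was not tested.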

How the data were processed

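The authors deposited unnormalised counts of reads per gene; the submitters' processing notes name HISAT2 2.1.0, featureCounts 1.6.0 and the build TAIR10. Whether counting used strand, and what was done with reads of several positions, is not given in the sources used here. A directional library kit was used, per the labels' protocols. All 4 count columns were used, and 37882 of 37885 identifiers matched the RefSeq TAIR10.1 annotation, which supplied positions, exon lengths and sequences.

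CPM used TMM library sizes in edgeR 4.0.16 (R 4.3.3), and BCV an intercept-only model on the 19940 genes past filterByExpr. TPM used the count plus 0.5. A chi-square test of homogeneity across libraries was run where each library had 10 or more expected counts, with Benjamini-Hochberg adjustment at 0.05 over all 20687 genes tested. The replicates are labelled biological, and what separates them is not given, so p-values speak of these libraries only. The chi-square p measures departure from counting error and depends on depth, so it does not give the size of a spread. The sign-flip p asks whether the genes of a pair differ in level. Both steps were tested on simulated data. Other scalings, filters, minimums, lengths, pseudocounts and DESeq2 1.42.0 were tried, and each library was left out in turn. Pairs were tested by exact sign flips in Python 3.11.15 with scipy 1.17.1.

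The members and lists were chosen with earlier results of these data known. All 35 members are named. Of the water transport list the 3 highest, the 3 lowest and the called genes with the largest and smallest excess are named, and of each marker list the highest. The seed markers CRU3, EM1 and EM6 are named after their values were seen. The planned search for protein motifs was replaced by coding sequence features, since no protein table was used here.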

Additional observations from a re-analysis of the deposited data

Results flagged for a closer look

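A sample far from the other 3 was found, by Dixon's gap over range above the critical value of 0.83 for 4 samples, in 8 of 46 values examined, among them 5 of the 33 members with a count and 4 of the 32 with more than 3 counts. Chance alone would flag about 1 in 20 groups. Past the expression filter, 3 of 29 members (10.3%) were flagged, against 5.2% of 19940 genes. PIP2.4 (0.948), PIP2.2 (0.914) and NIP5.1 (0.886) were flagged for a low replicate 1, as were the family's share of all counts (0.876) and the share of the 13 PIP genes (0.931), which was 0.306, 0.331, 0.331 and 0.3295% in replicates 1 to 4. TIP3.1 (0.986) and the summed CPM of the 13 seed markers (0.984) were flagged for a high replicate 2. TIP1.3 (1) had 0, 0, 0 and 1 counts, which give this value by construction.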

How the results depend on the processing

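The family's share of all counts was 0.576% with the 10 most abundant genes taken out of the total, and 0.530 to 0.548% with a library left out. Members past the filter numbered 29 whichever library was left out, and 27 where 1 CPM was required in every library. Members varying beyond counting error numbered 16 of 31, 19 of 29, 20 of 31 and 23 of 30 tested without replicates 1 to 4 in turn. The shares of all genes called were 26.5, 35.2, 30.8 and 35.7%. With DESeq2 size factors 24 of 30 were called and with unscaled totals 21 of 30, against 42.7 and 44.2% of all genes. With minimums of 5 and 20 expected counts, 25 of 32 and 24 of 29 were called, against 41.6 and 43.8% of all genes. The member gained at the minimum of 5 was TIP3.2, which had 17 counts in replicate 2 and few in the others. Members above the BCV trend numbered 10, 16, 17 and 17 of 29 without replicates 1 to 4 in turn, lowest without replicate 1. The shares of all genes above it were 33.8, 33.5, 31.9 and 32.2%. With DESeq2's dispersion 16 of 29 members lay above, against 24.5% of all genes. With no filter 19 did and with DESeq2 size factors 18, where the share of all genes was not taken. Neighbours not separated in the order of levels numbered 11 to 16 with a library left out, lowest without replicate 2, 16 with the longest transcript, 14 with no length and 17 with a pseudocount of 1. All 105 alternative values of the pair ratios kept their direction. Of the alternative TPM values, 19 moved by more than 1 SD and 205 did not. Each of the 19 came from another gene length or from none. Without replicate 2, TIP3.1 had 0.217 TPM, against 1.06 with all libraries, and TIP3.2 0.166, against 0.345, moves within an SD that replicate 2 itself sets. No paired analysis was possible because the labels give a single group. Members with few counts (TIP3.1, TIP3.2, NIP2.1, NIP4.2, NIP7.1) are limited by depth. The cause of these moves was not tested.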
